A study of Campylomormyrus compressirostris and Campylomormyrus rhynchophorus and Campylomormyrus compressirostris x Campylomormyrus rhynchophorus with 15 samples.

Results

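The electric organs of 15 juvenile weakly electric fish of the genus *Campylomormyrus* were compared here for the spread between fish and for the abundance profile of each library. Tests of mean level are given for abundant genes only, beside that profile. The libraries were grouped by their titles into *C. compressirostris* (*com*, 5 fish), *C. rhynchophorus* (*rhy*, 5 fish) and their F1 hybrid (*comrhy*, 5 fish), for which a *com* father was crossed with a *rhy* mother, so that all 15 of the 15 libraries of the series were used. Every fish was a juvenile of a labelled length of 6 cm, artificially bred and raised, and taken without regard to sex. Each fish gave 1 library, and neither the kinship of the fish nor the families they came from was given. The reads of all 3 groups were mapped to the *com* genome, so species and closeness to the reference cannot be told apart in any difference between *com* and *rhy*.

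The electric organ of mormyrids derives from muscle and consists of stacked electrocytes, flat multinucleate cells that no longer contract. Sodium channels of the electrocyte membranes carry the inward current of the electric organ discharge (EOD), and potassium channels end it and hold the resting potential. Nerve endings, vessels and connective tissue lie between the electrocytes and enter a bulk library with them. The spread between fish of 1 group sums the differences between individuals, dissection and library preparation, which this design does not separate.

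The libraries held between 8346594 and 19259314 expected counts, with *com* the shallowest group (8346594 to 11549627), *rhy* libraries between 12502127 and 13927972 and *comrhy* between 12973363 and 19259314. No pair of libraries of a group agreed within sampling noise. The electrocyte markers SCN4AA, a voltage-gated sodium channel, and KCNA7A_1, a voltage-gated potassium channel, were above 0 in every library. Their summed level was 2435 to 3937 TPM in *com* against 414 to 567 TPM in *rhy* and 1411 to 1987 TPM in *comrhy* (TPM, a level scaled by transcript length and to the same total in every library). SCN4AA alone stood at 1094 to 2215, 372 to 527 and 1092 to 1534 TPM in the same order, so *com* and *comrhy* overlapped in it. KCNA7A_1 alone stood at 1293 to 1722, 40.1 to 71.3 and 319 to 460 TPM. The 5 muscle markers summed to 1701 to 2256, 741 to 1267 and 1711 to 2135 TPM in the same order. Of the 5, only MYOCD, at most 3.74 TPM in any library, was at 0 in some *rhy* libraries. Without TMOD4, the most abundant of the 5, the other 4 summed to 593 to 864, 294 to 380 and 601 to 750 TPM. Of these, KLHL30 went the other way, with means of 75.2, 127 and 105 TPM. The 3 leukocyte markers summed to at most 17.6 TPM, with 1 or 2 of them at 0 in 8 libraries. The pigment cell marker TYRP1 reached at most 53.5 TPM, in *rhy*. The 3 vessel markers summed to 77.1 to 110 TPM in *com* against 803 to 1083 TPM in *rhy* and 149 to 298 TPM in *comrhy*, and the 6 neural markers to 83.7 to 131, 813 to 982 and 284 to 455 TPM, with at most 1 of the 6 at 0. In *rhy* and *comrhy* 1 gene made up most of each of these sums, CD34 of the vessel and SYNGR3 of the neural markers. Without CD34, the other 2 vessel markers, SCARF1 and FGD5, summed to 20.7 to 47.5 TPM in *com*, 28.1 to 41.1 TPM in *rhy* and 38.3 to 51.4 TPM in *comrhy*. Without SYNGR3, a synaptic vesicle protein, the other 5 neural markers went the opposite way, with 65.8 to 102 TPM in *com*, 10.3 to 19.8 TPM in *rhy* and 31.8 to 57.0 TPM in *comrhy*. In bulk tissue, fewer cells of a type and less RNA per cell cannot be told apart.

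The abundance profile was read from the share of the expected counts of a library that its 1, 10 and 100 most abundant genes took. The most abundant gene took a larger share in most *com* libraries. The most abundant gene took 3.63%, 19.3%, 15.4%, 9.70% and 10.9% of the counts in com104, com121, com123, com124 and com125. It took 5.18%, 3.08%, 4.73%, 4.96% and 2.64% in the 5 *rhy* libraries and 4.61%, 5.16%, 4.38%, 4.83% and 5.89% in the 5 *comrhy* libraries. In 4 of 5 *com* libraries the share was thus above that of every *rhy* and *comrhy* library, and com104 lay inside their range.

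The mean share of the most abundant gene was 11.8% ± 5.94 in *com*, 4.12% ± 1.17 in *rhy* and 4.97% ± 0.590 in *comrhy* (SD, n = 5 fish each). By a two-sided exact permutation test, *com* exceeded *rhy* by 7.66 percentage points with p = 0.0317, and *comrhy* by 6.81 points with p = 0.0476. After Benjamini-Hochberg adjustment over the 9 comparisons of shares these exact permutation p-values were 0.0571 and 0.0714 and so missed the threshold of 0.05, where 5 against 5 fish allow no p below 0.00794. *comrhy* and *rhy* differed by 0.856 points with p = 0.230 in the exact permutation test. Without com104 the *com* differences were larger, at 9.70 and 8.85 points, with an adjusted p of 0.0238 in both exact permutation tests, and those of the 10 and the 100 most abundant genes passed the threshold as well. com104 was the *com* fish that overlapped the other groups, so its removal fixed p at the lowest value the remaining fish allow. With any other fish left out these differences missed the threshold, with an adjusted p of up to 0.114 and 0.143 for the most abundant gene (exact permutation tests).

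The 10 most abundant genes took 15.1%, 27.0%, 23.6%, 18.6% and 20.5% of the counts in the *com* libraries, in the same order of fish. The *rhy* libraries lay between 13.5% and 16.6% and the *comrhy* libraries between 14.4% and 16.3%. The 100 most abundant genes took 35.0%, 42.3%, 40.9%, 37.5% and 40.9% in *com* against 32.02% to 35.0% in *rhy* and 32.6% to 36.9% in *comrhy*. For the 10 most abundant genes *com* was 5.51 points above *rhy* and 5.64 points above *comrhy*, and for the 100 most abundant 5.67 and 5.30 points, with an adjusted p of 0.0571 in each of these 4 exact permutation tests. *comrhy* and *rhy* differed by -0.13 and 0.365 points, with adjusted p-values of 0.825 and 0.821 in the exact permutation tests. In the plot of shares by group, com104 is the lowest *com* fish at each of the 3 depths.

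**Figure D1:**
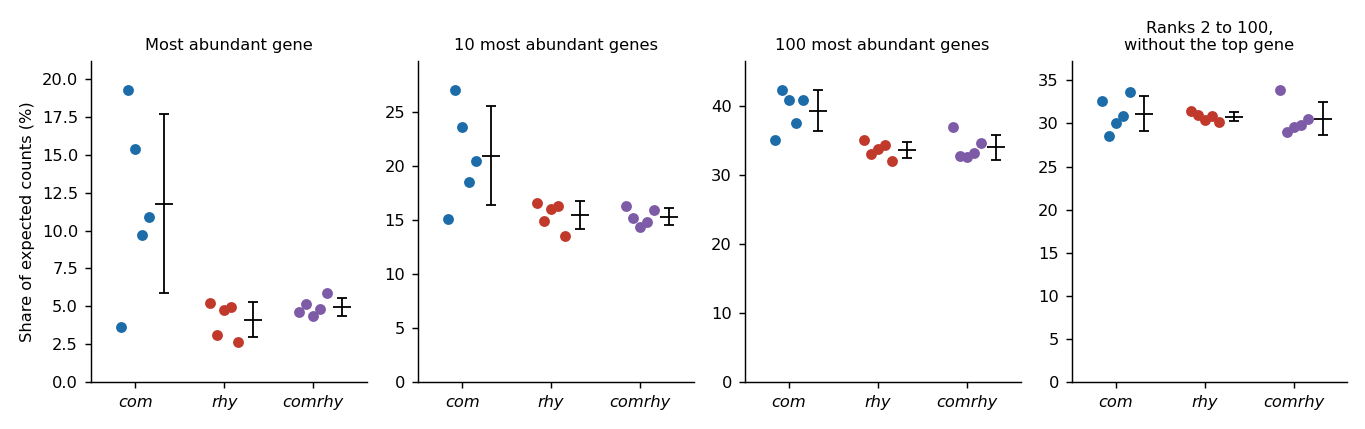
Share of the expected counts (%) taken by the most abundant gene, the 10 and the 100 most abundant genes, and by ranks 2 to 100 after the most abundant gene of each library was taken out of list and total. Each point is 1 fish (5 per group, in the order of fish number), and the black bars are the mean ± SD; *com* spans 3.63% to 19.3% in the first panel, while in the last panel the 3 groups overlap.

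The most abundant gene of each library was next taken out of both the list and the total. By expected counts, the mean excess of *com* then shrank or changed sign. Ranks 2 to 10 then held 10.4% ± 0.997 of the remaining counts in *com*, 11.8% ± 0.397 in *rhy* and 10.9% ± 0.774 in *comrhy* (SD, n = 5). The difference between *com* and *rhy* turned to -1.47 points (adjusted p = 0.143, exact permutation test) and that between *com* and *comrhy* to -0.53 points (adjusted p = 0.730, exact permutation test). Ranks 2 to 100 held 31.1% ± 2.02, 30.8% ± 0.509 and 30.6% ± 1.93, and the differences of *com* from *rhy* and *comrhy* shrank to 0.327 and 0.570 points (adjusted p = 0.849 in both exact permutation tests). Over the 99 genes that followed, the *rhy* libraries were the closest to each other, from 30.2% to 31.5%, against 28.5% to 33.6% in *com* and 29.1% to 33.9% in *comrhy*. com104, whose leading share lay inside the range of *rhy*, held 32.6% there, above every *rhy* library. With the leading gene counted, the 1000 most abundant genes held 66.2% to 68.9% in *com* and 63.3% to 65.0% in *rhy*, without overlap. The part of the leading gene in these differences was not tested. Shares of TPM were not examined without their leading gene. With that gene counted, *com* exceeded *rhy* in TPM share by 6.56 points for 1 gene and 8.59 points for 10. For *com* against *comrhy* these TPM values were 5.90 and 5.84 points.

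The gene model that led 14 of 15 libraries was snap_masked-ptg000024l-processed-gene-13.7, a model of 2637 bases without a name in the tables used here. It was second in rhy50, where maker-ptg000085l-augustus-gene-18.138 led with 3.08% against 2.95%. In edgeR's quasi-likelihood test the level of this leading model was higher in *com* than in *rhy* by 1.68 on the log2 scale (adjusted p = 0.000923). By the same edgeR test it was higher in *com* than in *comrhy* by 1.44 (adjusted p = 0.00704). *comrhy* and *rhy* differed by 0.24 (edgeR, adjusted p = 0.623). The model was picked for its rank in these same counts. Its share in com104, 3.63%, lay inside the range of *rhy*, and the exact permutation tests of the leading share missed the threshold after adjustment. The coefficient of variation (CV, SD divided by mean) of its share was 50.4% in *com*. The second model, maker-ptg000085l-augustus-gene-18.138, was spread less in *rhy*, at 2.42% to 3.08% of the counts, than in *com*, at 0.872% to 1.93%. In *com* it was highest in com104 and com125, the fish in which it held the second rank, and *rhy* and *com* did not overlap.

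The other 8 of the 10 genes with the highest mean share took 0.699% to 1.42% of the counts on average and had no name either. Per transcript length the profile was led by other models as well. All 6 models of the contig ptg002578l, 222 to 1149 bases long, were among the 20 gene models with the highest mean TPM. Together they held 12.3%, 8.34%, 11.2%, 9.52% and 9.29% of the TPM in the 5 *com* fish, 6.57% to 7.65% in *rhy* and 8.44% to 10.7% in *comrhy*. By expected counts the same 6 models held 0.909% to 1.75%. With shares of TPM in place of counts, the differences of *com* passed the threshold at all 3 depths, with adjusted p-values between 0.0179 and 0.0408 (exact permutation tests), and *comrhy* exceeded *rhy* by 2.75 points for the 10 most abundant genes (adjusted p = 0.0179, exact permutation test).

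A profile can also be described by the number of genes needed to hold 50% of the counts. This number was 343, 228, 241, 300 and 236 in the 5 *com* libraries, 367 to 428 in *rhy* and 317 to 434 in *comrhy*. The *com* and *rhy* libraries did not overlap in it, and comrhy59, at 317, was the lowest of the *comrhy* libraries and the 1 that reached into the range of *com*. Thinned to the same total of 8346577 counts, the group means were 269.4, 392.6 and 392.2 genes in *com*, *rhy* and *comrhy*, against 269.6, 393.0 and 392.4 genes at full depth. At that depth a count was found for 20538 to 21277 genes in *com* against 19318 to 20751 in *rhy* and 20486 to 21139 in *comrhy*.

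**Figure D2:**
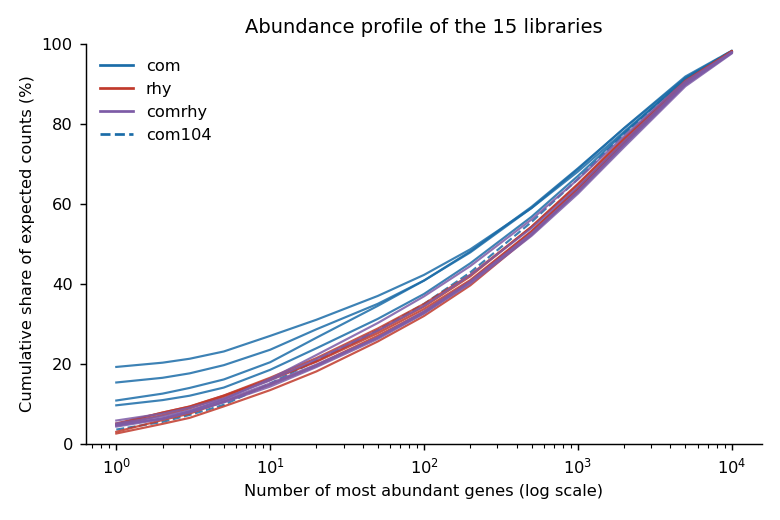
Cumulative share of the expected counts (%) against the number of most abundant genes (log scale), with 1 line per library. The *com* lines start between 3.63% and 19.3%, with com104 (dashed) among the *rhy* and *comrhy* lines at the first rank, and all 15 lines lie between 62.6% and 68.9% at 1000 genes.

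The membership of the upper ranks was compared next. Of the 200 genes that were among the 100 most abundant of at least 1 library, 41 were so in all 15 libraries. Within a group, 60 genes were shared by the top 100 of all 5 *com* fish, 75 by those of all 5 *rhy* fish and 70 by those of all 5 *comrhy* fish. By group mean share, *com* and *rhy* had 61 of their 100 most abundant genes in common, *com* and *comrhy* 78, and *comrhy* and *rhy* 72. All 3 groups shared 59.

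Of the 100 genes with the highest mean share over all libraries, edgeR called 21 higher in *com* than in *rhy* and 18 higher in *rhy* (adjusted p below 0.05 and a change over 1 on the log2 scale). Over the 18489 genes tested the same calls took 13.1% and 9.75%. Against *comrhy*, 5 were higher in *com* and 9 lower, beside 4.42% and 4.66% of all genes tested. Between *comrhy* and *rhy*, 7 were higher in *comrhy* and 9 higher in *rhy*, beside 7.64% and 4.45% of all genes tested. These 3 comparisons share their libraries, and the 100 genes were picked by their share in the same libraries. A gene high in 1 group alone could thus enter the 100, so no result is drawn from these rates. The count was highest between the species, and a difference between these counts was not tested.

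Only 3 of these 100 genes carried a legible name. EGLN3, a prolyl hydroxylase that acts on hypoxia-inducible factors, stood at 587, 976, 1267, 1560 and 1237 TPM in *com*, at 224 to 281 TPM in *rhy* and at 339 to 444 TPM in *comrhy*. Its rank was 11 to 35 in *com* and 74 to 93 in *rhy*, and the 3 groups did not overlap in TPM. The level was higher in *com* than in *rhy* by 2.33 on the log2 scale (edgeR, adjusted p = 3.33e-07) and than in *comrhy* by 1.60 (adjusted p = 5.83e-05).

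SCN4AA ranked 19 to 37 in *com*, 25 to 34 in *comrhy* and 82 to 131 in *rhy*. NR4A1, a nuclear receptor that responds quickly to stimuli, stood at 200, 741, 576, 612 and 530 TPM in *com* and at 93.5 to 373 TPM in *comrhy*, but at 0.460 to 2.83 TPM in *rhy*. It was the only 1 of the 100 that missed the TPM minimum of the spread measures. NR4A1 ranked 7977 to 13468 in *rhy*, so it was among the 100 only through its share in *com* and *comrhy*. A test of its level against *rhy* would rest on that choice and on few reads, so none is given. In *com* the lowest level of NR4A1 was that of com104, at rank 126 against 20 to 38 in the other 4 fish. Across the names in the tables, KCNJ2, an inwardly rectifying potassium channel, entered the top 100 in *rhy* alone, at ranks 32 to 51. So did the poly(A)-binding protein PABPC4, at ranks 55 to 85, and the nucleolar protein NCL, at ranks 73 to 92 outside rhy49, where its rank was 102. KCNA7A_1 entered the top 100 in *com* alone, in com104 and com124, at ranks 95 and 93.

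The spread between fish was measured as the CV of TPM within each group, over the 10598 of 34492 gene models with a mean of at least 5 TPM in all 3 groups. The median CV was 19.2% in *com*, 15.2% in *rhy* and 15.5% in *comrhy*. The 10th and 90th percentiles were 9.10% and 44.1% in *com*, 7.43% and 34.1% in *rhy* and 8.21% and 34.0% in *comrhy*. A CV above 50% was found for 776 genes (7.32%) in *com*, 423 (3.99%) in *rhy* and 451 (4.26%) in *comrhy*. A CV above 100% was found for 1.33%, 0.406% and 1.17% of the genes, so that at this extreme *comrhy* was closer to *com* than to *rhy*. At the other end, 13.2%, 22.6% and 18.3% of the genes had a CV below 10%.

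Gene by gene, the CV was higher in *com* than in *rhy* for 63.8% of the genes and higher than in *comrhy* for 62.8%, while it was higher in *comrhy* than in *rhy* for 52.5%. It was over 2-fold higher in *com* than in *rhy* for 2430 genes and over 2-fold lower for 744. For *com* and *comrhy* these numbers were 2054 and 755, and for *comrhy* and *rhy* 1409 and 1135. These counts describe 5 fish per group that share every library, so genes are not independent replicates and no p is given.

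*com* had the highest median CV in each class of abundance. Among 1608 genes with a mean of 5 to 10 TPM the median CV was 23.2% in *com*, 20.2% in *rhy* and 18.98% in *comrhy*. It was 19.2%, 15.3% and 15.8% among 6042 genes of 10 to 50 TPM, and 16.8%, 12.6% and 13.3% among 2708 genes of 50 to 500 TPM. Among the 240 genes of 500 TPM and over it was 18.4%, 13.3% and 12.8%, so that it was higher than in the class below in *com* and *rhy* and lower in *comrhy*. For the 99 of the 100 most abundant genes that passed the minimum, the median CV was 21.7% in *com*, 12.6% in *rhy* and 13.9% in *comrhy*, with *com* the highest of the 3 in 68 of 99, beside 5228 of the 10598 genes tested.

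**Figure D3:**
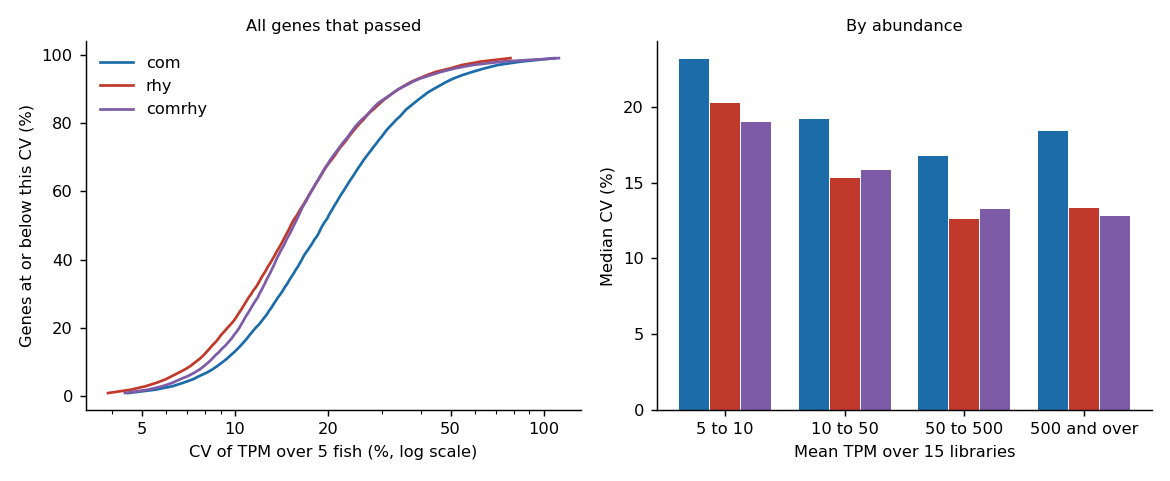
Left, share of the 10598 genes (%) at or below a given CV of TPM over 5 fish (log scale), for each group. Right, median CV (%) in 4 classes of mean TPM over 15 libraries; the *com* bars are the highest in every class, from 16.8% to 23.2%.

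TPM is a share of a fixed total, so a fish in which 1 gene takes 19.3% of the counts has lower TPM in its other genes. Rescaled by the median of ratios between libraries, the median CV was 18.2% in *com*, 14.99% in *rhy* and 14.0% in *comrhy*. Counts thinned to the smallest total gave 19.5%, 15.7% and 16.3%. On the counts themselves, edgeR's common biological coefficient of variation over the same genes was 0.286 in *com*, 0.192 in *rhy* and 0.243 in *comrhy*, and ranged from 0.253 to 0.310, from 0.185 to 0.198 and from 0.221 to 0.255 when 1 fish was left out. Over the 7961 genes that were counted but fell below the TPM minimum it was 0.527, 0.456 and 0.570, the highest value being that of *comrhy*. The place of the hybrid relative to the species thus differed between sets of genes and measures.

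The spread was then read per fish. The deviation of a library was taken as the median over genes of the relative distance from the mean of its group. It was 19.5%, 13.0%, 12.5%, 11.6% and 15.6% in com104, com121, com123, com124 and com125. It was 11.8%, 12.4%, 10.6%, 11.4% and 11.1% in the 5 *rhy* fish. It was 15.9%, 12.4%, 10.51%, 9.58% and 11.1% in the 5 *comrhy* fish, of which comrhy59 was the highest. The *rhy* fish lay close to each other, whereas com104 and comrhy59 had the highest deviations of their groups. com125, at 15.6%, was near comrhy59, and Dixon's criterion for outliers among 5 values, given below, flagged none of these fish.

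The mean deviation was 14.4% ± 3.19 in *com*, 11.5% ± 0.708 in *rhy* and 11.9% ± 2.46 in *comrhy* (SD, n = 5). *com* exceeded *rhy* by 2.97 points, with p = 0.0317 and 0.0952 after adjustment over the 3 pairs of groups in two-sided exact permutation tests. The differences between *com* and *comrhy*, 2.54 points, and between *comrhy* and *rhy*, 0.426 points, had adjusted p-values of 0.286 and 0.833 in the exact permutation tests. Fish of a group share the mean they deviate from, so their values are not independent and these p-values are approximate. Without com104 the difference between *com* and *rhy* was 1.17 points and that between *com* and *comrhy* 0.725 points. Without com104 and comrhy59, which were left out together after their values were seen, the median CV was 16.2% in *com*, 15.1% in *rhy* and 13.5% in *comrhy*. The CV was then higher in *com* than in *rhy* for 54.0% of 10521 genes, higher in *com* than in *comrhy* for 61.3% and higher in *comrhy* than in *rhy* for 42.6%.

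Beside these values, com104 also had the highest summed level of the electrocyte markers in *com* (3937 TPM against 2435 to 3187 TPM) and of the muscle markers (2256 TPM against 1701 to 2133 TPM). Its vessel sum (110 TPM against 77.1 to 96.3 TPM) and neural sum (131 TPM against 83.7 to 127 TPM) were the highest as well. Its leukocyte sum was the lowest (7.29 TPM against 9.78 to 15.3 TPM), and most of that sum was LCP1. The other 2 leukocyte markers together reached at most 1.26 TPM in *com*. Of the electrocyte markers, com104 was highest in SCN4AA (2215 TPM against 1094 to 1469 TPM) and nearly level with com124 in KCNA7A_1 (1722 and 1718 TPM). Of the muscle markers, PPP1R3A was higher in com124 (451 TPM) than in com104 (385 TPM). Of the vessel markers, com104 was highest in SCARF1 alone (37.2 TPM) and lowest in FGD5 (10.3 TPM against 12.5 to 18.4 TPM). Without SYNGR3, the highest neural sum of *com*, 102 TPM, was that of another fish. comrhy59 had the lowest electrocyte sum of *comrhy*, 1411 TPM against 1775 to 1987 TPM, and the lowest neural sum, 284 TPM against 322 to 455 TPM. The low neural sum came from SYNGR3, at 241 TPM in comrhy59 against 290 to 409 TPM. Without SYNGR3, the lowest neural sum of *comrhy*, 31.8 TPM, was that of comrhy63. The part of these sums in the spread was not tested. The total of com104, 11549627 counts, was the highest of the *com* libraries.

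Distances between pairs of fish were also taken. The median absolute difference of log2(TPM + 1) between 2 fish of a group ranged from 0.22 to 0.38 over the 10 pairs in *com*, with a median of 0.26. It ranged from 0.20 to 0.24 in *rhy*, with a median of 0.22, and from 0.18 to 0.30 in *comrhy*, with a median of 0.22. The most distant pair of all was com104 and com125, and the closest was comrhy61 and comrhy62.

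Genes in which 1 fish was over 2-fold above or below all others of its group were counted next. com104 was above the other 4 fish in 140 genes and below them in 212, together 3.32% of the genes. com125 followed with 120 above and 49 below, and com121 with 39 above and 111 below, whereas com123 and com124 had 63 and 44 such genes in all. In *rhy* the number was highest in rhy50, with 29 above and 112 below, and 31 to 77 in the other 4 fish. In *comrhy* it was highest in comrhy59, with 96 above and 57 below, and 23 to 96 in the other 4 fish. com125 and comrhy59 were thus set apart more by higher genes, and com104, com121 and rhy50 more by lower genes.

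**Figure D4:**
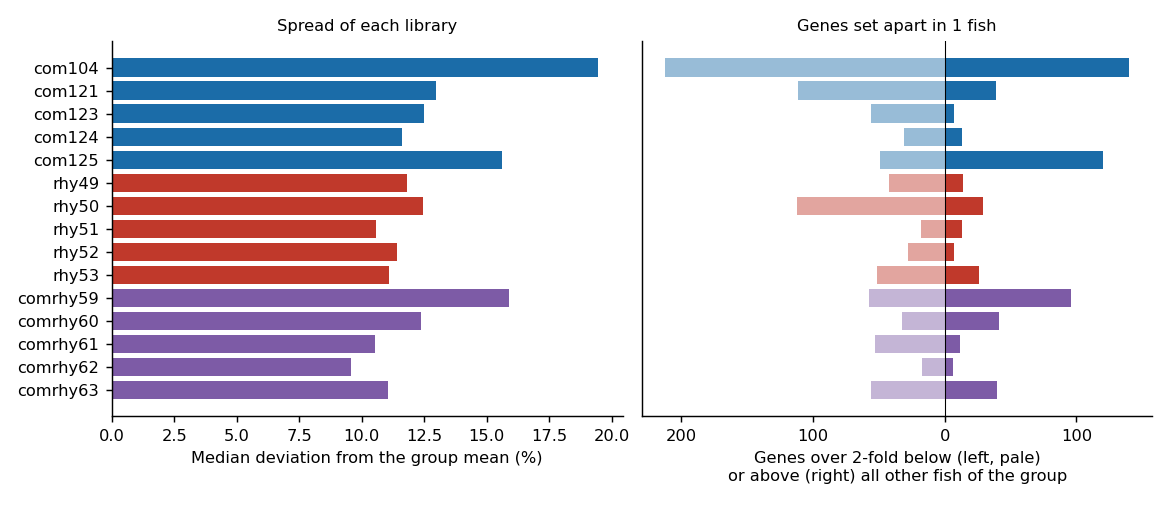
Left, median relative deviation of each library from its group mean (%) over 10598 genes. Right, number of genes in which the fish was over 2-fold below (pale, to the left) or above (to the right) all other 4 fish of its group; com104 is the longest bar on the left, at 19.5%, and has 212 genes below and 140 above.

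Named genes were among those set apart in 1 fish. In com104, KCNJ2 stood at 257 TPM against 76.2 to 118 TPM in the other *com* fish, and SOX11, a transcription factor, at 49.2 TPM against 10.1 to 22.5 TPM. GSN, the actin-severing protein gelsolin, stood at 13.8 TPM in com104 against 36.7 to 51.2 TPM, and MGP, a matrix protein that inhibits calcification, at 4.86 TPM against 24.9 to 49.8 TPM. Named genes of muscle and cytoskeleton went both ways in com104, which was the lowest *com* fish for GSN, DBN1 and CYFIP1. It was the highest for KLHL30, C10orf71, FILIP1 and KIF13B. com121 was highest in NOG2, a noggin-like antagonist of bone morphogenetic proteins, with 80.6 TPM against 17.0 to 39.8 TPM, and in CADPS, which primes vesicles for secretion, with 23.3 TPM against 6.00 to 11.6 TPM. In rhy50, MGP stood at 109 TPM against 34.2 to 49.6 TPM, and SMAD3, which transmits signals of transforming growth factor beta, at 21.6 TPM against 134 to 326 TPM. com125 was below the rest in SOX11. No named gene was set apart in this way in the hybrids.

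A test of unequal spread was fitted across all 10598 genes with limma, on the absolute deviations of log2(TPM + 1) from the group mean. At an adjusted p below 0.05, 36 genes were spread more widely in *com* than in *rhy* (0.34% of the genes tested) and 15 more widely in *rhy* (0.142%). Between *com* and *comrhy* the calls were 10 wider in *com* (0.0944%) and 2 wider in *comrhy* (0.0189%), and between *comrhy* and *rhy* 3 wider in *comrhy* (0.0283%) and 5 wider in *rhy* (0.0472%). At an unadjusted p below 0.05 the 3 comparisons held 1460, 1231 and 836 genes. In the 36 genes wider in *com*, the median CV was 48.2% in *com* and 11.7% in *rhy*. In the 15 genes wider in *rhy* it was 82.1% in *rhy* and 21.3% in *com*. Both contrasts were set by the selection of these genes and are no support for the calls.

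These calls were few and not stable. With the deviation taken from the group median, or with squared deviations, limma called 0 genes in each of the 3 comparisons, and with only the libraries of the 2 groups in the fit it called 3, 0 and 3. With 1 fish left out the number of calls between *com* and *rhy* went from 17, without rhy50, to 161, without com123, and none of the 51 genes was called in all 15 of these fits.

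The called models named by the rule are given with their values. The test favours genes whose fish all lie about equally far from the mean, so the shape of these values was set by the selection. maker-ptg000698l-snap-gene-0.20 stood at 1.80 and 2.12 TPM in com104 and com121 and at 24.1, 25.1 and 23.8 TPM in com123, com124 and com125. In *rhy* it stood at 6.77 to 11.2 TPM, and the difference in mean deviation was 1.44 ± 0.19 on the log2 scale (SE, limma adjusted p = 0.00818). The hybrids were spread widely in this model as well, from 2.18 to 16.55 TPM, with a CV of 71.8% against 79.7% in *com*. maker-ptg002527l-snap-gene-0.17 stood at 79.3 and 68.1 TPM in com104 and com121 and at 17.4 to 24.6 TPM in the other 3, against 39.0 to 44.9 TPM in *comrhy* (difference 0.86 ± 0.12, SE, limma adjusted p = 0.0123). com104 and com121 were low in the first model and high in the second. In the hybrids, maker-ptg000457l-augustus-gene-27.80 stood at 145 and 49.8 TPM in comrhy60 and comrhy62 and at 9.71 to 12.2 TPM in the other 3, while it lay at 10.4 to 14.3 TPM in *com* and 12.3 to 14.2 TPM in *rhy*.

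Some called models rested on very few reads. The models with the lowest p among those wider in *rhy*, maker-ptg000102l-snap-gene-37.19 and maker-ptg000133l-snap-gene-19.5, stood at 0 TPM in 3 *rhy* fish and at 162 and 230 TPM or 120 and 123.3 TPM in the other 2, but those levels came from 3 or 4 expected counts. Very short models turn a few reads into a high TPM: 199 of the 10598 models had a mean expected count under 10 in at least 1 group, and their median length was 312 bases against 2255 bases over all. A minimum mean count of 10 in each group was therefore added after these values were seen. It left the median CV at 18.99%, 15.01% and 15.3% in *com*, *rhy* and *comrhy* and the calls at 46 and 14 for *com* against *rhy* and *comrhy*. Between *comrhy* and *rhy* it left 0 calls in the limma test, with 797 genes at an unadjusted p below 0.05. In the main fit, 5 of 51, 0 of 12 and 2 of 8 calls had a mean count under 10 in a group. The other calls between *comrhy* and *rhy* were thus lost although their models stayed in the fit.

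Genes were also counted that were off in 1 fish and on in another of the same group, here taken as below 1 TPM and above 10 TPM, a rule that was also chosen after the values were seen. There were 101 such models in *com*, 94 in *rhy* and 63 in *comrhy*, and 162 in all with none of the named genes among them. With at least 30 expected counts in the highest fish the numbers were 55 in *com*, 22 in *rhy* and 18 in *comrhy*. Of these, 9, 1 and 7 were off in 2 or 3 of the 5 fish. An example is maker-ptg000852l-augustus-gene-27.16, which stood at 0 TPM in com104 and com125 and at 26.8 to 28.8 TPM in the other 3 *com* fish, from 72.4 to 95.0 expected counts. Reads that fit several similar models are divided between them by estimation, and the part of this step in such zeros was not tested.

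The genes named in the tables of the study gave a view of known functions, of which 70 of 142 passed the TPM minimum. They had been picked there for their levels or alleles in these and other fish, so they are no independent sample of the genes. Their median CV was 20.5% in *com*, 15.5% in *rhy* and 14.3% in *comrhy*, beside 19.2%, 15.2% and 15.5% over all genes. The CV was highest in *com* for 38 of the 70, in *rhy* for 19 and in *comrhy* for 13, or 54.3%, 27.1% and 18.6%, beside 49.3%, 25.03% and 25.6% of all genes tested. None of the 70 was called for unequal spread in any of the 3 comparisons by limma, where the 2 lowest adjusted p-values were those of BHLHE40 and SCARF1. At an unadjusted p below 0.05 there were 9, 9 and 8 of the 70, or 12.9%, 12.9% and 11.4%, beside 13.8%, 11.6% and 7.89% of all genes.

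Ion channels and transporters, the genes closest to the discharge, had 5 of 12 members above the minimum, with a median CV of 32.1% in *com*, 20.7% in *rhy* and 12.1% in *comrhy*. SCN4AA stood at 2215, 1221, 1166, 1469 and 1094 TPM in the *com* fish, at 491, 527, 499, 372 and 467 TPM in *rhy* and at 1092, 1534, 1322, 1412 and 1373 TPM in *comrhy*. com104 was the highest and comrhy59 the lowest of their groups, and the CV was 32.1%, 12.6% and 12.1% in *com*, *rhy* and *comrhy* (limma adjusted p for unequal spread 0.462 between *com* and *rhy* and 0.507 between *com* and *comrhy*).

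KCNJ2 stood at 257, 76.2, 93.5, 118 and 113 TPM in *com*, at 1656, 1802, 1149, 1774 and 1211 TPM in *rhy* and at 267, 284, 296, 259 and 339 TPM in *comrhy*. All *rhy* fish were above all others, and com104 came close to the lowest hybrids. Its CV was 54.7% in *com*, 20.7% in *rhy* and 10.9% in *comrhy*, and no adjusted p of the 3 limma comparisons of spread was below 0.434.

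KCNA7A_1 showed the other order, with a CV of 13.9% in *com*, 25.2% in *rhy* and 13.8% in *comrhy*. Its level was 1722, 1293, 1412, 1718 and 1341 TPM in *com*, 50.5, 40.1, 61.7, 41.7 and 71.3 TPM in *rhy* and 319, 454, 460, 415 and 402 TPM in *comrhy*, and the groups did not overlap. In *rhy*, where it was lowest, it was also relatively most variable, and the limma test of spread gave an adjusted p of 0.547 between *com* and *rhy*. Of the other members, SLC24A2, a sodium and calcium exchanger that also carries potassium, had a CV of 41.7%, 23.3% and 43.5%, and the membrane protein PKD1 14.1%, 13.0% and 6.38%.

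Stimulus-responsive genes had 3 of 6 members above the minimum, and the CV of all 3 was highest in *com*, as it was in 49.3% of all genes. BHLHE40, a transcriptional repressor linked to the circadian clock, stood at 195, 53.5, 58.8, 51.98 and 113 TPM in *com*, at 166, 131, 122, 138 and 152 TPM in *rhy* and at 112, 131, 110, 109 and 115 TPM in *comrhy*. In *com* the fish fell on both sides of the other groups, with com104 above and 3 fish below every *rhy* and *comrhy* fish. The CV was 65.2%, 12.2% and 7.79%, and the mean deviation in *com* exceeded that in *rhy* by 0.61 ± 0.13 on the log2 scale and that in *comrhy* by 0.68 ± 0.13 (SE, limma adjusted p = 0.0545 and 0.0670). EGLN3 had a CV of 32.4%, 9.46% and 10.3%, with com104 at 587 TPM below the 976 to 1560 TPM of the other 4 *com* fish. DUSP7, a phosphatase of the mitogen-activated protein kinase pathway, had a CV of 38.4%, 19.1% and 25.3%.

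SCARF1, a scavenger receptor known from vessel walls in mammals, was the named gene with the second lowest p for *com* against *rhy*. It stood at 37.2 and 19.6 TPM in com104 and com121, while com124 and com125 had 9.72 and 8.12 TPM and com123 lay between these and com121. It stood at 7.55, 6.91, 8.88, 8.24 and 8.06 TPM in *rhy* and at 17.7, 18.98, 20.96, 16.5 and 17.4 TPM in *comrhy*. com104 and com121 were the highest of the *com* fish, and the CV was 71.2%, 9.36% and 9.43% (limma adjusted p = 0.0588 against *rhy* and 0.0925 against *comrhy*). CD34, another vessel marker, was instead most variable in the hybrids, with a CV of 20.1%, 12.4% and 37.9%.

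Of the muscle and cytoskeleton genes 12 of 20 passed, with a median CV of 23.0% in *com*, 14.2% in *rhy* and 12.9% in *comrhy*. KLHL30 stood at 117 TPM in com104 against 60.4 to 69.7 TPM in the other *com* fish, and at 96.9 to 112 TPM in *comrhy*. GSN was nearly equal in CV, at 39.0%, 36.9% and 37.8%, with a mean level of 39.3 TPM in *com* and 128 and 132 TPM in *rhy* and *comrhy*. TMOD4, tropomodulin of muscle, had a CV of 13.1%, 26.7% and 12.2%, and CYFIP1, a regulator of actin branching, 5.91%, 10.3% and 15.9%.

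Transcription regulators passed in 7 of 13 and had a median CV of 35.4%, 20.97% and 24.6% in *com*, *rhy* and *comrhy*. SMAD3 was spread widely in all groups, with 66.2% in *rhy*, the highest CV of a named gene there, 42.7% in *com* and 40.1% in *comrhy*. MEF2D, a regulator of muscle genes, had its highest CV in *rhy* as well, 52.1%, with 1 fish at 24.7 TPM and the others at 6.65 to 12.5 TPM. TIMELESS, a gene of the replication fork with a place in the clock of insects, stood at 45.6, 64.3, 85.3, 81.9 and 122 TPM in *com* and had a CV of 35.4%, 20.97% and 30.4%.

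Lipid and sugar metabolism passed in 9 of 14, with a median CV of 30.6%, 21.4% and 18.6%. OSBPL1A, an oxysterol-binding protein, went against the order of the groups. It stood at 360, 310, 317, 302 and 281 TPM in *com*, at 52.9, 113, 84.6, 103.5 and 47.1 TPM in *rhy* and at 129, 162, 153, 128 and 94.5 TPM in *comrhy*, with no overlap of *com* with the other groups. Its CV was 9.20%, 36.7% and 19.6%, and it was the named gene with the lowest p among those wider in *rhy* than in *com* (difference in mean deviation -0.43 ± 0.11 on the log2 scale, SE, limma adjusted p = 0.104). CPT2, which brings fatty acids into mitochondria, had a CV of 30.6%, 18.6% and 23.9%.

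Adhesion and matrix genes, 5 of 16 above the minimum, had a median CV of 22.5%, 25.2% and 23.1%, and the CV was highest in *com* for 2 of them, in *rhy* for 2 and in *comrhy* for 1. CLDN11, a claudin of tight junctions, had 22.5%, 25.2% and 12.7%, and NOG2 had 74.1%, 39.9% and 32.9%, the first being the highest CV of a named gene in *com*. CHRD, the bone morphogenetic protein antagonist chordin, was the most even of the named genes in *rhy*, at 330 to 367 TPM and a CV of 4.31%, against 15.4% in *com* and 12.02% in *comrhy*. LSR, a protein of tricellular junctions, was widest in the hybrids, with 16.3%, 16.1% and 34.6% and with comrhy63 at 11.4 TPM against 20.4 to 31.0 TPM in the other hybrids.

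RNA and protein handling had the lowest median CV of the 7 lists in *com* and *rhy*, and the second lowest in *comrhy* after the stimulus-responsive genes. Of its 13 genes 12 passed, with a median CV of 14.9%, 10.9% and 11.9%, and the CV was highest in *comrhy* for 6 of 12, in *rhy* for 4 and in *com* for 2, beside 25.6%, 25.03% and 49.3% of all genes. SRP68, of the signal recognition particle, was the most even named gene in *com*, at 43.6 to 48.0 TPM and a CV of 4.11%, and NCL, the nucleolar protein nucleolin, followed with 5.77%. CCDC43 stood at 70.6, 70.9, 72.5, 71.9 and 68.9 TPM in *comrhy*, a CV of 1.93%, the lowest of a named gene in any group, but at 132 TPM in rhy50 against 73.8 to 78.1 TPM in the other *rhy* fish, a CV of 29.1%. PABPC4, a poly(A)-binding protein, was most variable in the hybrids, with 14.6%, 10.4% and 30.4% in *com*, *rhy* and *comrhy*.

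**Figure D5:**
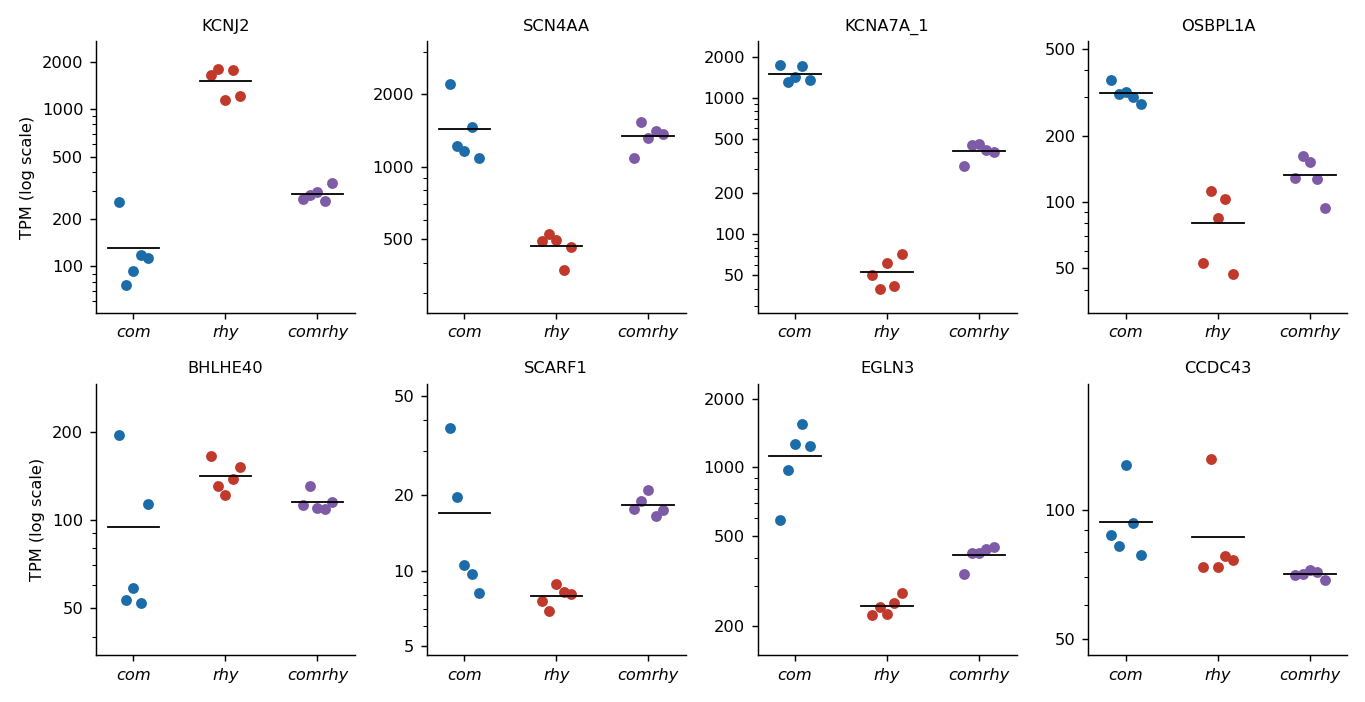
TPM (log scale) of 8 named genes in each fish, 5 per group in the order of fish number, with the group mean as a black line. The first point of *com* is com104, which is highest in KCNJ2, SCN4AA, BHLHE40 and SCARF1 and lowest in EGLN3 within its group; OSBPL1A is even in *com* and wide in *rhy*.

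com104 was at the edge of its group in several of the genes named above, a list drawn up after their values were seen. It was the highest *com* fish for SCN4AA, KCNA7A_1, KCNJ2, OSBPL1A, BHLHE40, SCARF1 and KLHL30 and the lowest for EGLN3, NR4A1, GSN, MGP and TIMELESS. In KCNA7A_1, com124 was close behind. In other named genes, among them CD34, CPT2 and CCDC43, com104 lay inside the range of the other *com* fish. The share of all genes in which com104 was at the edge was not counted.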

How the data were processed

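The groups, members and gene lists were chosen with earlier results of these data known. Per the labels and the methods of the study, mRNA was enriched by poly(A) capture and sequenced from strand-specific libraries, the authors trimmed the reads with Trimmomatic 0.39 and estimated an expected count and TPM per gene model with RSEM on the *C. compressirostris* genome; the aligner is not given in the sources used here. Deposited TPM are scaled to the effective length and to the total of each library. Adult fish were not analysed here, and no reference genome was used. Gene names came from 142 of 157 models that the supplementary tables pair with a legible name, most of the 34492 models having none here. The named genes were the leading models and, where they passed the TPM minimum, 13 genes from the text or tables of the study. Of the 13, CPNE7, MIPOL1, RYBP, KCNQ5A and NR4A1 missed it. Per comparison of spread, the 8 named genes with the lowest p and up to 2 unnamed models a direction were added. So were, per group, the 3 named genes with the highest and lowest CV, and list members as examples.

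Shares were computed from expected counts, and CVs from TPM over models with a mean of at least 5 TPM in each group. Single values per library were compared by two-sided exact permutation tests of the difference of means with Benjamini-Hochberg adjustment over 9 shares or 3 deviations (scipy 1.17.1). A library's deviation was scaled for the number of fish, and the fish of a group share the mean it was taken from. Spread per gene was fitted with limma 3.58.1 on the deviations of log2(TPM + 1), all 15 libraries in 1 fit, and levels with edgeR 4.0.16 (quasi-likelihood, TMM, expected counts rounded to whole numbers, over 10 in at least 2 libraries). DESeq2 1.42.0, other minima, scalings, pseudocounts of 0.1 and 5, thinned counts and leaving out each fish were alternatives. Tested on simulated data, the limma spread test recovered a minority of strongly widened genes and gave more false calls than its threshold states, while edgeR recovered most changed genes. The labels do not say whether the fish of a group came from separate families. The fish may thus not be independent, and the p-values hold for these fish alone.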

Additional observations from a re-analysis of the deposited data

Results flagged for a closer look

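Of 138 sets of 5 fish that were looked at, 10 measures of whole libraries and 36 named genes in 3 groups each, 8 had a fish further from the others than Dixon's criterion for 5 values allows. None of the measures of whole libraries was among these 8, com104 and comrhy59 included. Chance flags about 1 in 20 independent sets. Some of the named genes were picked for their spread in these same fish, so the 8 of 138 cannot be set against that rate.

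In *com*, KCNJ2 was 257 TPM in com104 against 76.2 to 118 TPM in the other 4 fish, and KLHL30 was 117 TPM in com104 against 60.4 to 69.7 TPM. FILIP1, a filamin-interacting protein, was 45.6 TPM in com125 against 66.6 to 74.9 TPM.

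In *rhy*, 2 of 3 cases were in rhy50, where CCDC43 was 132 TPM against 73.8 to 78.1 TPM and MGP was 109 TPM against 34.2 to 49.6 TPM. CADPS was 9.77 TPM in rhy51 against 3.82 to 5.50 TPM.

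In *comrhy*, EGLN3 was 339 TPM in comrhy59 against 418 to 444 TPM, and BHLHE40 was 131 TPM in comrhy60 against 109 to 115 TPM.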

How the results depend on the processing

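Over 348 alternative values, 265 kept their direction and their side of the threshold or stayed near the main value. With shares of TPM, *com* exceeded *rhy* by 6.56, 8.59 and 5.48 points and *comrhy* by 5.90, 5.84 and 4.45 points for the 1, 10 and 100 most abundant genes, all then past the threshold, and *comrhy* exceeded *rhy* by 2.75 points for 10 genes. By expected counts without the most abundant gene of each library, the differences for 10 genes were -1.47 (*com* minus *rhy*) and -0.53 points (*com* minus *comrhy*). For 100 genes the difference was then -0.24 points (*comrhy* minus *rhy*). For deviation per library, the median of ratios gave 3.004 points for *com* minus *comrhy* (now past the threshold) and -0.66 points for *comrhy* minus *rhy*, which was -0.91 points with no filter and -0.93 points without com104 and comrhy59. The median CV at a mean of at least 1 TPM was 23.8%, 19.3% and 18.9% in *com*, *rhy* and *comrhy*, and 12.5% in *rhy* at 20 TPM. The cause was not tested.

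The limma counts of unequal spread changed most. For *com* against *rhy*, *com* against *comrhy* and *comrhy* against *rhy* they were 85, 25 and 19 at 1 TPM, 22, 5 and 2 at 20 TPM, 209, 176 and 94 with no filter, 0 in each with group medians or squared deviations, and 3, 0 and 3 with only the groups compared. With a pseudocount of 5 they were 33, 21 and 2, and with 0.1 the last was 13. *com* against *comrhy* and *comrhy* against *rhy* gave 24 and 3 with the median of ratios and 26 and 1 with TMM. *com* against *comrhy* gave 21 without the 10 most abundant genes, 22 with thinned counts and 39 without com104 and comrhy59. The minimum mean count of 10 left 0 for *comrhy* against *rhy*. That minimum and the removal of both fish were chosen after seeing the data.

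Leaving out 1 fish gave, for the most abundant gene, 5.79 to 9.70 points (*com* minus *rhy*), 4.93 to 8.85 (*com* minus *comrhy*) and 0.488 to 1.12 (*comrhy* minus *rhy*). For 10 genes it gave 3.99 to 6.96, 4.12 to 7.09 and -0.62 to 0.153, and for 100 genes 4.92 to 6.74, 4.56 to 6.38 and -0.36 to 0.715, the highest *com* values being those without com104. *comrhy* minus *rhy* turned direction without rhy49 (0.153), rhy51 (0.0118), rhy52 (0.0733) or comrhy61 (0.104) for 10 genes, and without rhy53 (-0.04) or comrhy59 (-0.36) for 100. Deviation per library ranged from 1.17 to 3.99 points, from 0.725 to 3.88 and, turning without comrhy59, from -0.93 to 1.24. It passed the threshold for *com* minus *rhy* without com124 and for *com* minus *comrhy* without comrhy59. The median CV ranged from 16.2% to 19.8% in *com* against 14.4% to 15.1% in *rhy* and 13.5% to 16.01% in *comrhy*. Counts of unequal spread ranged from 17 to 161, 6 to 94 and 3 to 16. Counts of abundant genes that differed in level ranged from 35 to 42, 11 to 17 and 12 to 18.

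No paired analysis was possible because the groups share no fish numbers. With 5 fish a group the CV of a gene is imprecise, *com* was sequenced least deeply, and genes under 5 TPM were left out of the CVs.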
